A study of Mus musculus with 4 samples.

Results

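Divergent bidirectional promoters are stretches from which 2 protein-coding genes start on opposite strands and are transcribed away from each other. They were taken from GENCODE M21 on mm10 (GRCm38) as pairs of autosomal coding genes whose transcription start sites (TSS) lay at most 1 kb apart. The rule gave 735 pairs with 1450 of the 20807 autosomal coding genes. Where a gene took part in more than 1 pair, the pair with the nearest TSS was kept, which left 715 promoters. The remaining 20 pairs share a promoter with a kept pair and are not counted again. The comparison class was 14524 single coding promoters, with no TSS of another coding gene within 10 kb.

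The data came from H3K4me3 HiChIP-seq of MLg cells, a mouse lung fibroblast line, in 4 libraries with 1 library per condition: Control, TGFB1 alone, TGFB1 with miR-9 loss of function (TGFB1+miR-9-LOF), with miR-9-LOF alone as the last. The labels give the transfections as WT, Tgfb treatment, Tgfb treatment with Anti-hsa-miR-Mir9-5p, and Anti-hsa-miR-Mir9-5p alone. AntagomiR probes were used at 60 nM with harvest after 24 h, and TGFB1 at 5 ng/ml was present over the last 4 h in both TGFB1 conditions. The protocol also lists a negative control antagomiR, which the labels of Control and TGFB1 do not name. No condition was replicated, so tests below compare libraries and not conditions, and their intervals cover counting error only. Intervals of medians reflect the spread over promoters within the libraries named, and not the difference between libraries of 1 condition.

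H3K4me3 is the histone mark of active and poised promoters, deposited by SET1 and MLL complexes, which are drawn to unmethylated CpG islands. Divergent coding promoters are common in mammals, are usually CpG islands without a TATA box, and often serve housekeeping genes of DNA repair, mitochondria and protein synthesis. A shared nucleosome-depleted stretch lies between both start sites, and the first nucleosomes of each gene flank it. In HiChIP-seq, proximity ligation of MboI fragments is combined with precipitation of the mark, so a pair of reads reports a contact, and the ends of pairs are enriched at marked promoters.

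The stretch between both start sites is shown for 5 pairs, since that stretch is what defines these promoters. Brca1/Nbr1, Mrps12/Sars2 and Col4a4/Col4a3 are textbook pairs that met the rule, and Slc39a7/Rxrb and Cramp1l/Ift140 are among the 5 pairs with the highest levels. Each is printed 5′ to 3′ on the plus strand of GRCm38, without the TSS bases, so that the gene named first is transcribed to the left and the second to the right. Capitals mark matches, on either strand, to the short motifs listed further down.
Brca1/Nbr1, chr11:101551956-101552148: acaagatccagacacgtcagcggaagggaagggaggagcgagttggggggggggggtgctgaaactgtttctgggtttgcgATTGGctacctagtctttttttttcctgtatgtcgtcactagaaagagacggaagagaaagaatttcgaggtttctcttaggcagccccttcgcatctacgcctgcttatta
Mrps12/Sars2, chr7:28741821-28741991: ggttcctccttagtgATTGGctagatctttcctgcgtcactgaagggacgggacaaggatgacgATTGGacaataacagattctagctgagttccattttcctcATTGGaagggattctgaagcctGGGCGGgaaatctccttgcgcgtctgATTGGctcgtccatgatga
Col4a4/Col4a3, chr1:82586850-82586920: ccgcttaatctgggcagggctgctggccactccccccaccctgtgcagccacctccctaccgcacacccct
Slc39a7/Rxrb, chr17:34031683-34031811: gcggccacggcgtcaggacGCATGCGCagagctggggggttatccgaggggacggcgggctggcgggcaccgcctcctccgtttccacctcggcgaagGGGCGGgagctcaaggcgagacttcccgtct
Cramp1l/Ift140, chr17:25015789-25016084: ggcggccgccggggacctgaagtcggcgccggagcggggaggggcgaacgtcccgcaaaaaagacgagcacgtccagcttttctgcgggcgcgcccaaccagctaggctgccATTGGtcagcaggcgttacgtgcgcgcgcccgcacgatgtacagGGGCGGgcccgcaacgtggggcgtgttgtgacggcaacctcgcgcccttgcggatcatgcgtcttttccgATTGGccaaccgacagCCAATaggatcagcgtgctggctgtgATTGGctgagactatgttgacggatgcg
The stretch of Mrps12/Sars2 held 4 CCAAT matches and 1 SP1 match, and that of Cramp1l/Ift140 held the same numbers. Brca1/Nbr1 had 1 CCAAT match, and Slc39a7/Rxrb had 1 NRF1 match and 1 SP1 match. No motif matched between Col4a4 and Col4a3, in a stretch of 71 bases with a GC content of 69.0%.

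The level of a promoter is the number of pair ends within 2 kb of the midpoint between both TSS, per 1000000 autosomal pair ends of the library. A mean stretch of the autosomes would carry a level of 1.67, and a promoter was called enriched at 4 times that density, a level of 6.68. The libraries held 10864558 to 15568047 valid pairs and 20790333 to 29538817 autosomal ends. The median divergent promoter was covered by 410 ends in Control, 215 in TGFB1 alone, 173 in the TGFB1+miR-9-LOF library and 221 in miR-9-LOF alone. The share of ends falling at promoters differed between the libraries in the same direction as most values below. Single promoters, which cover 2.43% of the autosomal bases, held 9.43% of the ends in Control, 7.42% in TGFB1 alone, 5.29% in the TGFB1+miR-9-LOF library and 5.76% in miR-9-LOF alone. Wherever 4 values follow each other without names, they are in that order of libraries, from Control to miR-9-LOF.

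Divergent promoters carried more H3K4me3 HiChIP-seq ends than single promoters in each of the 4 libraries. Their median level was 13.9 in Control, 10.3 in TGFB1 alone, 6.43 in the TGFB1+miR-9-LOF library and 7.48 in miR-9-LOF alone. The 95% order-statistic intervals of these medians were 13.0 to 14.7, 9.67 to 11.3, 6.13 to 6.84 and 7.04 to 8.06. Single promoters had medians of 2.79, 2.79, 2.64 and 2.61, whose intervals lay below those of the divergent promoters in every library. The ratio of the medians was 5.00 in Control, 3.71 in TGFB1 alone, 2.44 in the TGFB1+miR-9-LOF library and 2.87 in miR-9-LOF alone, and its log2 averaged 1.75 (conservative interval 1.64 to 1.89). The promoters of 1 library are not replicates, so no test between the classes was made.

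**Figure D1:**
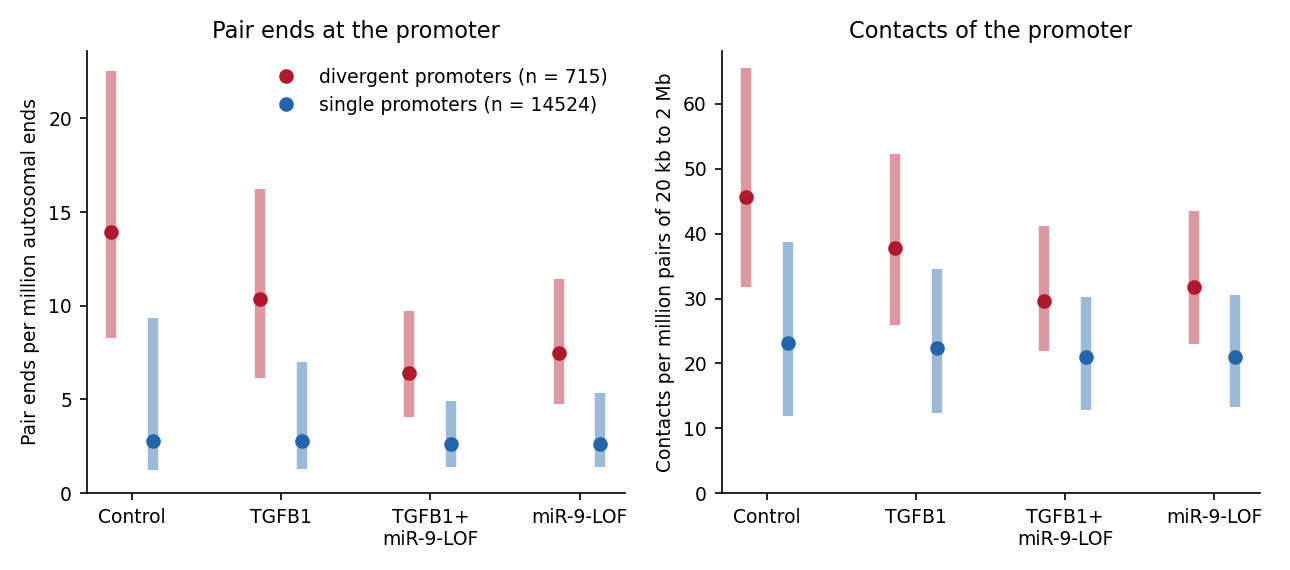
Median (points) and quartiles (bars) of pair ends within 2 kb per 1000000 autosomal ends (left) and of contacts within 10 kb per 1000000 pairs of 20 kb to 2 Mb (right), for 715 divergent and 14524 single promoters in each library. The divergent median lies above the single median in each of the 4 libraries, and the gap is widest in Control (13.9 against 2.79).

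The 715 windows covered 0.119% of the autosomal bases and held 1.16% of the autosomal ends in Control, 0.855% in TGFB1 alone, 0.522% in the TGFB1+miR-9-LOF library and 0.614% in miR-9-LOF alone. That was 9.70, 7.16, 4.37 and 5.15 times the mean density, against 3.89, 3.06, 2.18 and 2.37 times for single promoters. Enriched divergent promoters numbered 590 of 715 in Control (82.5%, exact 95% interval 79.5% to 85.2%), 508 in TGFB1 alone (71.0%), 341 in the TGFB1+miR-9-LOF library (47.7%) and 398 in miR-9-LOF alone (55.7%). Among single promoters 31.7%, 26.2%, 15.3% and 19% were enriched. Against their own flanks at 10 to 50 kb, which carry the local copy number and background, the median divergent promoter was 5.46-fold, 4.25-fold, 2.80-fold and 3.23-fold higher, and the median single promoter 1.44-fold, 1.42-fold, 1.36-fold and 1.35-fold.

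Much of the gap went with CpG content. The CpG observed-to-expected ratio over 150 bases to either side of the midpoint or TSS had a median of 0.852 in divergent and 0.551 in single promoters, and 84.9% of divergent against 46.8% of single promoters reached 0.6. With both classes held to that ratio, which was chosen after seeing the data, the ratio of median levels was 1.77 in Control, 1.79 in TGFB1 alone, 1.56 in the TGFB1+miR-9-LOF library and 1.67 in miR-9-LOF alone. Among promoters enriched in the mean of the 4 libraries, 486 divergent (68.0%) and 3597 single (24.8%), it was 1.16, 1.18, 1.12 and 1.15. That selection was made on the level itself, in both classes, so these ratios do not compare the classes in level. Divergent windows also held a median of 10 MboI sites per 4 kb against 9 in single windows, and within the divergent class the level rose with the number of sites (Spearman's rank correlation 0.420, 0.456, 0.494 and 0.464 over 715 promoters, as a description). The part of MboI sites in the gap was not tested.

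The distance between both TSS had a median of 127 bp (quartiles 66 and 238.5) and barely went with the level. Taking the mean over the 4 libraries, the pairs at up to 100 bp, 42.1% of all, had a median level of 9.75, the 285 pairs at over 100 to 300 bp one of 9.64 and the 129 pairs at over 300 bp one of 8.82. Spearman's rank correlation of level with distance was between -0.0656 and -0.0564 in the 4 libraries. The widest class also had the lowest CpG ratio, with a median of 0.671 against 0.907 in the closest. At the limit of the rule, the 25 pairs at over 700 bp had median levels of 11.7, 10.1, 6.09 and 7.11, and 25 pairs of coding genes just outside it, at over 1000 to 1300 bp, had 12.9, 10.7, 7.32 and 7.58. Another 426 pairs of opposite coding genes whose starts overlap by at most 1 kb, outside the rule as well, had medians of 12.9, 9.16, 5.98 and 6.91.

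The ends formed a double peak around the midpoint, with 1 summit on the side of each gene. In bins of 200 bp the mean summits lay 300 bp to either side in all 4 libraries. In Control the left summit, on the side of the gene on the minus strand, held 1.90 ends per 1000000 autosomal ends in a bin and the right one 1.77, with 1.47 in the central bins and 0.153 at 4 to 5 kb. The centre reached 77.5%, 70.4%, 70.4% and 67.6% of the higher summit. MboI sites dipped at the same place, with means of 0.397 and 0.469 sites in the central bins against 0.529 in each of the bins 300 bp away, and their part in the double peak was not tested. Single promoters had 1 main summit, 300 bp into the gene body, at 0.838 in Control, while the highest bin upstream held 0.469. The left summit of divergent promoters was 1.06 to 1.09 times the right one, where the single promoters' upstream maximum was 0.523 to 0.573 times the one in the gene body.

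**Figure D2:**
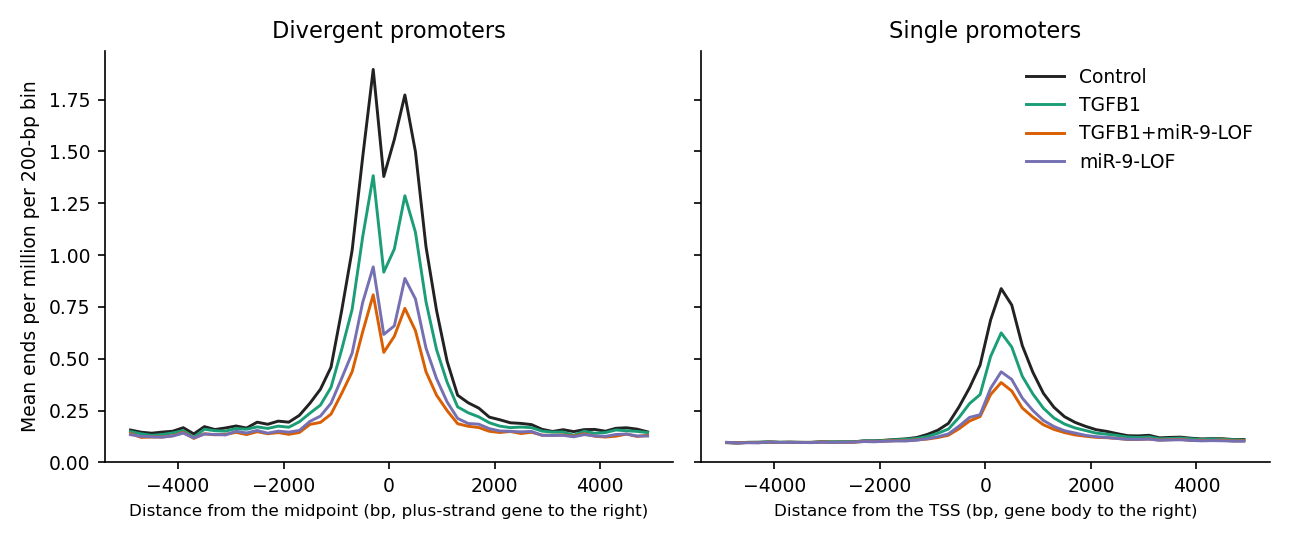
Mean pair ends per 1000000 autosomal ends in 200-bp bins within 5 kb of the midpoint of divergent promoters (left) and of the TSS of single promoters (right), 1 line per library. Divergent promoters show summits 300 bp to either side of the midpoint (1.90 and 1.77 in Control), where MboI sites are also denser than at the centre (0.529 against 0.397 and 0.469 a bin), and single promoters show 1 main summit 300 bp into the gene.

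The median share of ends on the side of the plus-strand gene was 50%, 50.2%, 50.2% and 49.8%, whereas single promoters had 61.2%, 61.0%, 58.7% and 59.1% of their ends on the side of the gene body. Individual promoters were often lopsided in both classes. The divergent quartiles were 31.4% and 69.0% in Control, and the median distance from an even split was 18.9 percentage points in divergent and 18.3 in single promoters. That share followed the share of MboI sites on the same side (Spearman's rank correlation 0.559 to 0.630 over the 706 to 711 promoters with at least 20 ends), so a lopsided count cannot be told apart from a lopsided set of cut sites.

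These central bases differed between the classes in letters as well as in CpG content. GC content had a median of 62.5% in divergent and 57.8% in single promoters. The ETS motif (CCGGAAG) matched in 200 of 715 divergent promoters, or 28.0% (exact 95% interval 24.7% to 31.4%), and in 9.76% of the single promoters. The motif of ZBTB33 (TCTCGCGA) matched in 4.90% against 1.07%, YY1 (AAGATGGC) in 8.39% against 2.96%, NRF1 (GCATGCGC) in 6.85% against 2.88%, and the cAMP response element (TGACGTCA) in 4.62% against 2.18%. The SP1 motif (GGGCGG) matched in 67.6% against 45.3% and CCAAT, the NFY motif, in 43.9% against 35.6%. The TATA box (TATAAA) was the rarer one in divergent promoters, at 4.62% against 11.2%. Stretches of 4 runs of at least 3 G with 1 to 7 bases between them, as in G-quadruplexes, were about as frequent in both classes, at 22% and 22.5%. All motifs were searched on both strands and may overlap one another. The bases searched are centred on the midpoint in divergent and on the TSS in single promoters, so they cover other positions relative to a start.

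Among promoters with a CpG ratio of at least 0.6, the gaps in ETS, ZBTB33, YY1, NRF1, cAMP response element and TATA matches kept their direction and were smaller as a ratio of shares, that in CCAAT did not shrink, and that in SP1 turned. ETS matched there in 31.6% of divergent and 16.8% of single promoters, ZBTB33 in 5.60% and 2.21%, YY1 in 9.23% and 4.88%, and CCAAT in 43.5% and 32.6%. NRF1 matched in 7.58% and 5.52%, the cAMP response element in 5.27% and 3.75%, and the TATA box in 2.97% and 3.97%. SP1 matched in 73.1% of these divergent and 77.2% of these single promoters, and the G-rich stretches in 23.1% and 35.9%. Within the divergent class, the median of the mean level was lower with than without a TATA box, at 6.36 and 9.70, and with than without the cAMP response element, at 7.75 and 9.69, each of which 33 promoters held. It was higher with than without NRF1, at 11.2 and 9.58, ZBTB33, at 10.8 and 9.64, YY1, at 10.7 and 9.55, SP1, at 10.1 and 8.82, and the G-rich stretches, at 10.7 and 9.49. With and without an ETS match it was 9.61 and 9.68, and with and without CCAAT 9.60 and 9.68. A match of letters is a description and not a bound site.

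**Figure D3:**
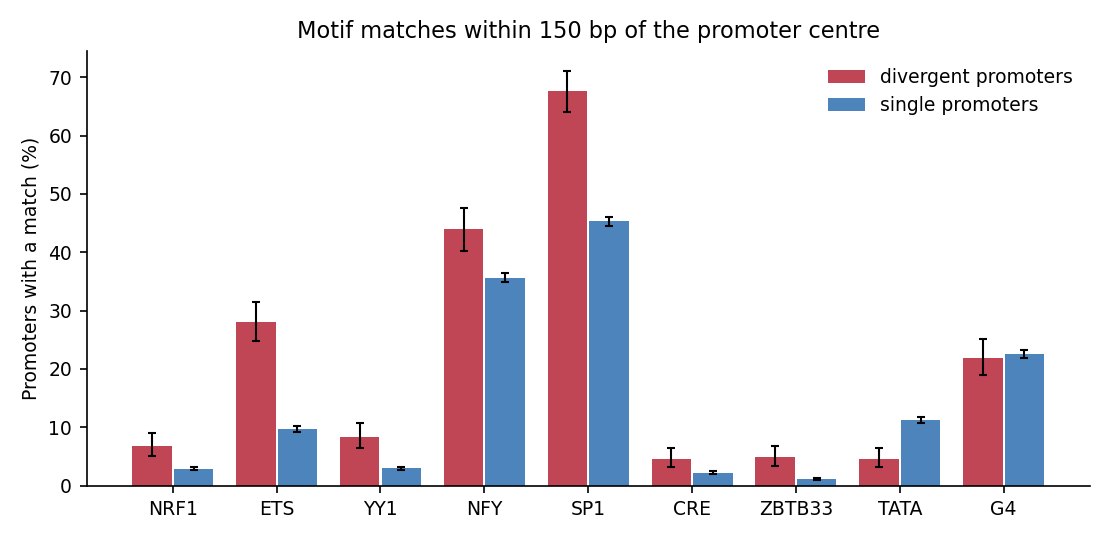
Percent of divergent and of single promoters with at least 1 match to each motif within 150 bp of the midpoint or TSS, with exact 95% binomial intervals as error bars. ETS (28.0% against 9.76%) and SP1 (67.6% against 45.3%, but 73.1% against 77.2% at a CpG ratio of at least 0.6) matches are more frequent in divergent promoters, TATA matches less (4.62% against 11.2%, and 2.97% against 3.97% at that ratio).

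A contact is a pair of ends 20 kb to 2 Mb apart with 1 end within 10 kb of the midpoint, given per 1000000 such pairs of the autosomes. Divergent promoters had a median of 45.6 contacts in Control (294 pairs), 37.8 in TGFB1 alone, 29.6 in the TGFB1+miR-9-LOF library and 31.8 in miR-9-LOF alone, and single promoters 23.1, 22.3, 21 and 21. The ratio of the medians was 1.97, 1.69, 1.41 and 1.52, smaller than for the level, which was counted within 2 kb. With both classes at a CpG ratio of at least 0.6 it was 1.38, 1.30, 1.15 and 1.22, and among enriched promoters 1.06, 1.05, 1.03 and 1.05. With level and contacts both counted within 5 kb, their log2 ratios of divergent over single promoters averaged 1.13 and 1.01. Level and contacts of a divergent promoter went together within a library, with Spearman's rank correlation of 0.843, 0.817, 0.762 and 0.791, as the ends of contacts are part of both counts.

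Per end, divergent promoters had somewhat fewer of these longer contacts. The median share of ends within 10 kb that belonged to a pair of 20 kb to 2 Mb was 39.8%, 39.6%, 38.7% and 39.2%, against 42.5%, 42.7%, 40.9% and 41.1% in single promoters. The difference averaged -2.48 percentage points (conservative interval -3.06 to -1.86). It was -1.84 among enriched promoters of both classes. In the 4 bins of mean level described below, divergent promoters had the lower share in each, at 41.5% against 42.3% in the lowest bin and 37.7% against 39.3% in the highest. The contacts were also slightly shorter, with a median distance of 138 kb against 147 kb in Control and 147 kb against 158 kb in miR-9-LOF.

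The far ends of the contacts fell within 5 kb of another coding TSS in 33.5%, 31.5%, 28.4% and 29.5% of the cases for divergent promoters and in 26.1%, 23.9%, 21% and 22.1% for single promoters. Dense neighbourhoods, with at least 3 other coding TSS within 100 kb, were found for 63.6% of divergent and 51.3% of single promoters. Single promoters were chosen to have no other coding TSS within 10 kb, and divergent promoters were not. Of the 715 divergent promoters, 591 had no further coding TSS within 10 kb. That choice removes near TSS from the single class only, and its part in this gap was not tested. At 0 to 2 other TSS within 100 kb, the shares of far ends near another coding TSS in Control were 16.3% and 13.8%. At 3 to 6 they were 29.6% and 30.8%, and at 7 or more they were 52.8% and 50.8%. The median contacts of divergent promoters rose over the same classes, from 40.1 to 44.9 and 61.4 in Control.

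Among 905 pairs of divergent promoters 40 kb to 2 Mb apart on 1 chromosome, the windows of 10 kb to each side were joined by 4.50, 2.43, 2.22 and 2.66 pairs on average, against 1.11, 0.692, 0.723 and 0.838 between single promoters. Against the number expected from the contacts of both windows and their distance, the ratio was 0.820 (exact Poisson interval 0.795 to 0.846) in Control, 0.885 in TGFB1 alone, 1.02 (0.972 to 1.06) in the TGFB1+miR-9-LOF library and 0.918 in miR-9-LOF alone. Between single promoters the ratio was 1.03, 1.02, 1.01 and 1.02, and between a divergent and a single promoter 0.90, 0.92, 0.94 and 0.91. For enriched divergent promoters, a selection made after seeing the data, the ratios were 0.906, 0.917, 1.04 and 0.945. The product of coverages takes a part of the enrichment as coverage, and its effect on ratios below 1 was not tested. No contact in any library joined 165 of the 905 pairs.

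The divergent promoters at 100 kb or more with the most joint contacts, picked by their counts, lay on chromosome 17 between Rnf151/Rps2 and Cramp1l/Ift140. Rnf151/Rps2, which includes a gene of the small ribosomal subunit, and Eme2/Mrps34, 177 kb away, were joined by 56 pairs in Control, 32 in TGFB1 alone, 24 in the TGFB1+miR-9-LOF library and 34 in miR-9-LOF alone. Per 1000000 contacts of the library that was 8.69, 6.94, 4.2 and 5.40. Rnf151/Rps2 and Nubp2/Spsb3 were joined by 62, 24, 21 and 28 pairs, and Eme2/Mrps34 and Cramp1l/Ift140, 121 kb apart, by 41, 28, 27 and 31. On the same scale Control had the most and TGFB1+miR-9-LOF the fewest in each of these 3. Nubp2/Spsb3 lies 168 kb from Rnf151/Rps2, so its window overlaps that of Eme2/Mrps34. Their counts with Rnf151/Rps2 share pairs and are not independent. The order was another one between Klc3/Ckm and Bloc1s3/Trappc6a on chromosome 7, the sixth by total count, at 3.88, 3.25, 4.55 and 2.7, where TGFB1+miR-9-LOF was highest.

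The highest levels belonged to Tomm6/Frs3, a subunit of the mitochondrial import pore beside an adaptor of FGF receptors, whose TSS lie at chr17:47688386-47689030. Its level was 62.0 in Control, 45.8 in TGFB1 alone, 26.3 in the TGFB1+miR-9-LOF library and 30.5 in miR-9-LOF alone. Nlgn2/Tmem256, with the adhesion protein neuroligin 2, had 61.2, 45.3, 25.4 and 30.9. Slc39a7/Rxrb, a zinc transporter and a retinoid X receptor, had 52.5, 38.2, 21.8 and 29.7. The libraries stood in the same order in all 3, with Control highest and TGFB1+miR-9-LOF lowest, which was also the order of the class medians. 4933427D14Rik/Txndc17, with a thioredoxin-domain protein, had 50.6, 41.4, 20.2 and 24.3, and Cramp1l/Ift140, with a subunit of intraflagellar transport, had 50.1, 37.2, 21.8 and 27.0. These 5 windows held 12 to 20 MboI sites, more than the median of 10, and were 7.43 to 13.0-fold above their flanks.

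Nlgn2/Tmem256, Slc39a7/Rxrb and Tomm6/Frs3 were also among the 5 pairs with the most contacts, where Zfpl1/Cdca5 and Eme2/Mrps34 took the other places. For Nlgn2/Tmem256 the contacts per 1000000 were 173 in Control, 129.7 in TGFB1 alone, 87.9 in the TGFB1+miR-9-LOF library and 105 in miR-9-LOF alone. Zfpl1/Cdca5, with the cohesin regulator sororin, followed with 162, 130.2, 87.7 and 92.8, and Slc39a7/Rxrb with 157, 121, 80.2 and 96.9. Tomm6/Frs3 and Eme2/Mrps34, the latter with a partner of the MUS81 nuclease and a mitochondrial ribosomal protein, had 146, 123, 80.7 and 84.5 and 145, 111, 74.2 and 91.3. Each had its most contacts in Control and its fewest in TGFB1+miR-9-LOF, as did the median of the class. These 5 pairs had 8 to 19 other coding TSS within 100 kb, against a class median of 4.

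Of 11 textbook pairs, 5 met the rule, while the annotated starts of the other 6 overlap, as at Col4a1/Col4a2, Hspd1/Hspe1, Ppat/Paics, Surf1/Surf2 and Tap1/Psmb9. Atm/Npat pairs the kinase of the double-strand break response with a coactivator of histone genes, and its level was 20.2 in Control, 14.6 in TGFB1 alone, 9.1 in the TGFB1+miR-9-LOF library and 10.02 in miR-9-LOF alone. Brca1/Nbr1, a gene of homologous recombination and an autophagy receptor, had 18.2, 13.7, 8.32 and 9.34. Both were above the class median in every library. Mrps12/Sars2, both of mitochondrial translation, had 12.4, 9.81, 6.61 and 7.21. Mcm4/Prkdc, a subunit of the replicative helicase and the catalytic subunit of DNA-PK, had 8.37, 5.82, 3.86 and 4.43. Col4a4/Col4a3, chains of basement membrane collagen, had 1.87, 2.45, 2.64 and 1.76 and was the only one of the 5 never at the enriched level. Its order of libraries was another one as well, with the highest value in TGFB1+miR-9-LOF.

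**Figure D4:**
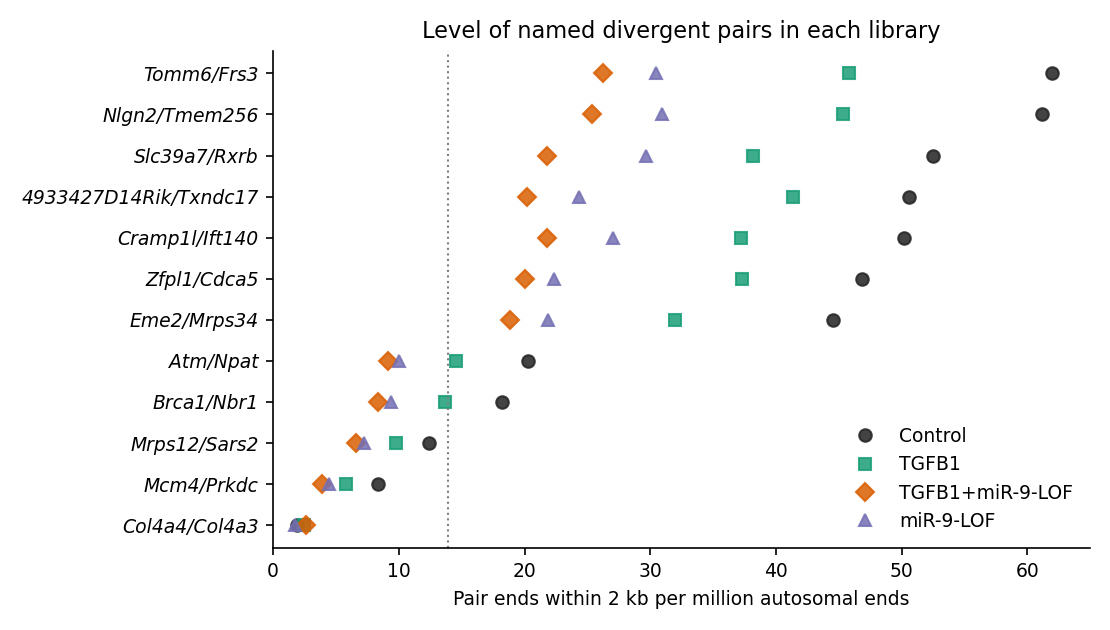
Level in each library of the textbook pairs and of the pairs with the highest levels or most contacts, as pair ends within 2 kb per 1000000 autosomal ends, ordered by their mean. The dotted line is the median of all divergent promoters in Control (13.9). Among the pairs plotted, Control is highest in all but Col4a4/Col4a3, which lies between 1.76 and 2.64 in all libraries.

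Gene groups were taken from fixed lists of symbols, which do not hold every gene of a process. Some pairs, such as Mrps12/Sars2 and Ndufaf2/Ercc8, are counted in 2 groups, so the groups are not independent. The 18 pairs with a mitochondrial ribosomal protein stood highest, with a median of the mean level of 11.4 against 9.66 over all 715 pairs, and 17 of them were enriched, beside 68.0% of all divergent promoters, a share near which most of the groups below lie. Eme2/Mrps34 at 29.3 and Mrpl54/Apba3 at 21.8 led, and Helq/Mrps18c, with a DNA helicase, was lowest at 3.00. Their 32 counterparts with a single promoter had a median of 6.55, and 16 were enriched. The 23 pairs with a symbol starting with Nduf, Cox, Uqcr, Atp5 or Sdh had a median of 10.3, and 17 were enriched. They ranged from Tepsin/Ndufaf8 at 24.6 to Ndufa8/Morn5 at 2.92. This respiratory chain group holds subunits of the chain and of ATP synthase as well as assembly factors, such as Ndufaf8. The 41 single promoters of that group had 5.94, with 18 enriched.

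The 15 pairs with a gene of the list of DNA repair and replication symbols, such as Brca1/Nbr1 and Mcm4/Prkdc, had a median of 8.90, and 12 were enriched. Prpf38a/Orc1, with a subunit of the origin recognition complex, was the lowest of those 15 at 2.89. The 11 pairs with a chaperone gene had 10.8 with 8 enriched, and Tecr/Dnajb1 led at 25.3. The 8 pairs with a cytosolic ribosomal protein had 9.76 with 6 enriched, the 18 pairs with a zinc finger gene 9.72 with 11 enriched, and the 5 pairs with an aminoacyl-tRNA synthetase 9.01 with 3 enriched. In these groups the single promoters had 6.14, 5.23, 8.32, 4.11 and 8.22, in the same order, and 15 of 32, 15 of 37, 22 of 35, 92 of 307 and 13 of 20 of them were enriched. For the aminoacyl-tRNA synthetases the single share was thus no lower than the divergent one. Only 2 pairs carried a symbol starting with Col, and Polk/Col4a3bp, at 17.6, names a ceramide transporter and no collagen.

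Replication-dependent histone genes were the exception, with a median of 1.61 over 14 pairs and none enriched, from 0 to 5.42 for Bola1/Hist2h2ab. Their single counterparts, 4 promoters, had 3.38. The pairs Hist1h2ap/Hist1h2br and Hist1h2bq/Hist1h2ao had 0 ends in all 4 libraries. The 235 bases between the TSS of the former occur without a mismatch in the stretch of the latter on the opposite strand. Reads from such copies cannot be assigned to 1 place, so over that stretch the 0 counts set no limit on the mark. Whether the rest of the windows has copies was not checked, and low values of other histone pairs are uncertain as well. Gml/Gml2 had 1 end in all, in miR-9-LOF, and with both histone pairs it had the lowest levels among windows with at least 3 MboI sites. Its window held 14 MboI sites. Whether it has copies elsewhere was not checked, so its low value is uncertain as well.

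The promoters kept nearly the same rank in the 4 libraries, with Spearman's rank correlation between 0.973 and 0.987 over the 715 promoters for each of the 6 pairs of libraries, as a description of values that share cut sites. The size of the signal differed. Control held the highest of the 4 levels in 676 of the 715 pairs (94.5%), and TGFB1+miR-9-LOF the lowest in 597 (83.5%). The comparisons below set each ratio against the median ratio over all divergent and single promoters. Most of these are single promoters, so the joint median removes only a part of the shift of the divergent class, and the rest enters the calls.

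In TGFB1 over Control, the median log2 ratio of level was -0.43 over 711 divergent promoters with at least 20 ends (95% order-statistic interval over promoters -0.45 to -0.41). It was -0.20 over 13553 single promoters (-0.21 to -0.19), a difference of -0.22. Relative to the joint median of -0.22, 3 divergent promoters were called higher and 12 lower (exact binomial test with Benjamini-Hochberg adjustment over all promoters, adjusted p of at most 0.05 and at least 1.5-fold). Over all 14264 promoters tested, 2.66% were called higher and 0.834% lower. The divergent shares were 0.422% and 1.69%.

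With TGFB1+miR-9-LOF set over TGFB1, the divergent and single medians were -0.68 (-0.70 to -0.66) and -0.25 (-0.26 to -0.23), a difference of -0.43, with 4 divergent promoters called higher and 99 lower, or 0.562% and 13.9%. The background was 4.51% higher and 5.47% lower. In miR-9-LOF over Control they were -0.88 (-0.90 to -0.86) and -0.28 (-0.30 to -0.26), a difference of -0.60, with 12 called higher and 315 lower, or 1.69% and 44.2%. The background was 12.2% higher and 19.4% lower. In all 3 comparisons the divergent share called lower was above the background and the share called higher was below it. TGFB1 over Control shares a library with each of the other comparisons, so the 3 are not independent. With both classes at a CpG ratio of at least 0.6, the differences between the classes were -0.075, -0.17 and -0.14, and among enriched promoters, chosen on the level in the same libraries, -0.0017, -0.040 and -0.021, in the order of the comparisons. At 2-fold 1, 1 and 18 divergent promoters were called in either direction. Relative to library totals 113, 481 and 593 were called, where the shift of all promoters enters each call. The share of all promoters called under these rules was not counted, so these numbers cannot be read as particular to divergent promoters.

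All promoters were put into 4 bins by the quartiles of the divergent mean level, and in the upper 3 bins both classes had close median ratios. For miR-9-LOF over Control these were -0.87 and -0.84 in bin 2, -0.91 and -0.93 in bin 3 and -1.0 and -1.03 in bin 4, divergent first. For TGFB1 over Control they were -0.44 and -0.43, -0.45 and -0.44, and -0.44 and -0.45. They were furthest apart in the lowest bin, at -0.61 and -0.01 for miR-9-LOF over Control, where the median level was 3.86 in 179 divergent and 1.87 in 10482 single promoters. The bins were set on the mean level of the same libraries that form the ratios, so they do not show whether the level accounts for the difference between the classes. A smaller share of ends at marked promoters in a whole library and a smaller amount of the mark at each promoter cannot be told apart here.

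**Figure D5:**
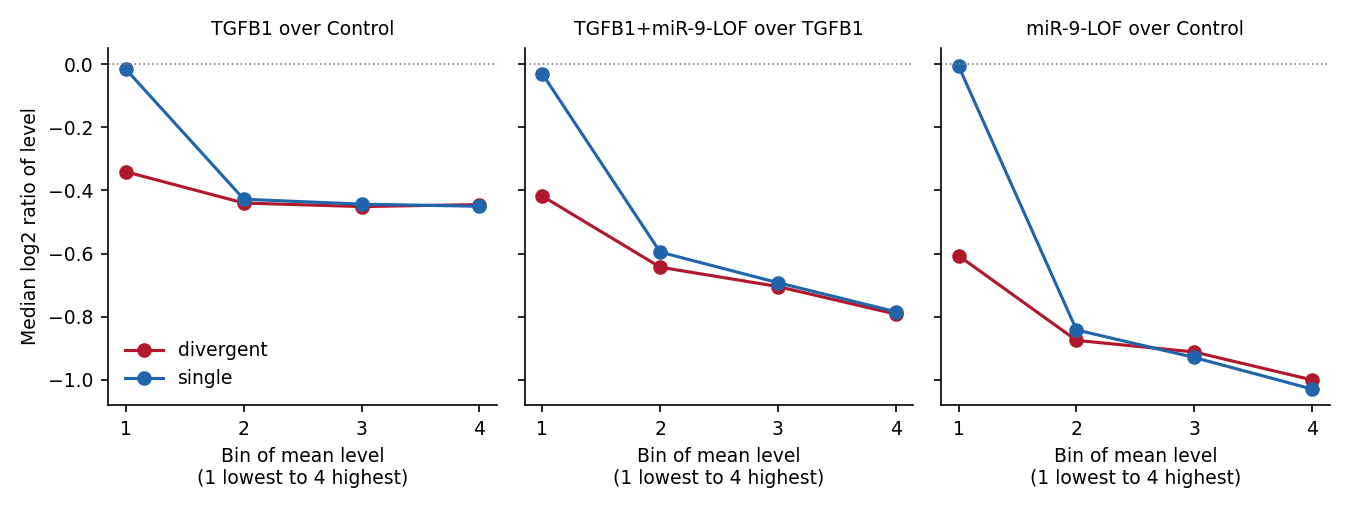
Median log2 ratio of level between libraries in 4 bins of mean level, set by the quartiles of the divergent promoters, for divergent and single promoters. In bins 2 to 4 the classes lie close together, for example -1.0 and -1.03 in bin 4 of miR-9-LOF over Control, and they part in bin 1 (-0.61 and -0.01).

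Contacts, counted within 10 kb, moved in the same direction by less than the level, counted within 2 kb. With both counted within 5 kb, the differences between the classes were -0.23, -0.38 and -0.57 in level, in the order of the comparisons. In contacts they were -0.21, -0.30 and -0.46. The median log2 ratio of divergent promoters was -0.30 in TGFB1 over Control, -0.34 in TGFB1+miR-9-LOF over TGFB1 and -0.54 in miR-9-LOF over Control, against -0.09, -0.11 and -0.14 in single promoters. Called higher were 1, 3 and 1 divergent promoters and called lower 3, 19 and 112, of 714 tested each time. The background in contacts was 0.788% higher and 0.267% lower in TGFB1 over Control, 0.712% and 0.986% in TGFB1+miR-9-LOF over TGFB1, and 9.16% and 5.91% in miR-9-LOF over Control. The divergent shares called lower were 0.420%, 2.66% and 15.7%. The differences between the classes, -0.20, -0.24 and -0.39, were -0.11, -0.14 and -0.18 with both classes at a CpG ratio of at least 0.6 and -0.032, -0.053 and -0.040 among enriched promoters. With contacts counted within 25 kb, 0, 4 and 30 divergent promoters were called in either direction. The share of all promoters called within 25 kb was not counted, and the background above is that within 10 kb. Of the 112 promoters lower in contacts in miR-9-LOF over Control, 99 were also among the 315 lower in level, 88.4% of the former and 31.4% of the latter, and both counts share ends.

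Of the 5 textbook pairs, 3 were called lower in miR-9-LOF over Control, beside 44.2% of all divergent promoters and 19.4% of all promoters tested. The log2 ratio relative to the joint median was -0.69 (95% exact interval -0.89 to -0.48, adjusted p = 9.42e-11, exact binomial test) for Atm/Npat. Brca1/Nbr1 had -0.63 (95% exact interval -0.85 to -0.42, adjusted p = 1.61e-08, exact binomial test) and Mcm4/Prkdc -0.59 (95% exact interval -0.91 to -0.28, adjusted p = 5.54e-04, exact binomial test). Mrps12/Sars2, at -0.45, had an adjusted p of 9.37e-04 in the exact binomial test but a ratio under 1.5-fold. Col4a4/Col4a3 had 0.24 (95% exact interval -0.34 to 0.81, adjusted p = 0.532, exact binomial test) and was not called in level in any comparison. In TGFB1 over Control none of the 5 was called.

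The largest called increases in TGFB1 over Control were all at promoters with low levels. Dgcr2/Tssk2, with a testis-specific kinase, had 1.05, 2.12, 1.82 and 1.86 and a relative log2 ratio of 1.22 (95% exact interval 0.53 to 1.94, adjusted p = 0.00632, exact binomial test). It rested on 31 and 44 ends. Lyzl4/Vipr1, with a receptor of vasoactive intestinal peptide, had 3.16, 5.29, 4.24 and 3.55 and 0.96 (95% exact interval 0.55 to 1.38, adjusted p = 2.43e-04, exact binomial test), and Lypd4/Dmrtc2 had 1.91, 3.13, 2.45 and 2.4 and 0.94 (95% exact interval 0.40 to 1.48, adjusted p = 0.00854, exact binomial test). These were the only 3 divergent promoters called higher in this comparison. None reached the enriched level in any library.

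The largest decreases were at 2700097O09Rik/Srp54a, with a subunit of the signal recognition particle, at 5.07, 2.26, 1.78 and 2.17 and -0.93 (95% exact interval -1.45 to -0.46, adjusted p = 0.00225, exact binomial test). Slc25a27/Cyp39a1, a mitochondrial carrier and an oxysterol hydroxylase, had 4.46, 2.07, 2.27 and 3.15 and -0.87 (95% exact interval -1.42 to -0.38, adjusted p = 0.00652, exact binomial test). Zfp944/Zfp758, both zinc finger genes, had 5.34, 2.55, 2.49 and 2.54 and -0.83 (95% exact interval -1.32 to -0.39, adjusted p = 0.00414, exact binomial test). In all 3 pairs Control stood above the other 3 libraries. The pairs were picked for a low TGFB1 over Control ratio, and Control was highest in 94.5% of all divergent promoters. Srp54a and zinc finger genes have close copies in the mouse genome, so a part of their reads may be missing or misplaced.

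For TGFB1+miR-9-LOF over TGFB1, the largest relative increase was at Lrrc63/Lcp1, with the actin-bundling protein of leukocytes, at 1.73 (95% exact interval 0.56 to 3.25, adjusted p = 0.0101, exact binomial test), from 7 to 26 ends in a window with 3 MboI sites. Ifit1bl2/Ifit1, with an interferon-induced antiviral gene, had 3.78, 2.74, 4.46 and 5.48 and 0.98 (95% exact interval 0.52 to 1.47, adjusted p = 2.33e-04, exact binomial test), and its contacts were 21.3, 16.5, 26.3 and 23.8. It was called higher in contacts too, at 0.79 (95% exact interval 0.38 to 1.21, adjusted p = 0.00426, exact binomial test). Level and contacts of this pair share ends. Both libraries with the miR-9 antagomiR had a higher level there than the 2 without, which was the reverse of the class. The pair was picked for its increase in TGFB1+miR-9-LOF over TGFB1, which fixed that part of the pattern. In miR-9-LOF over Control it was also called higher in level, at 0.86 (95% exact interval 0.51 to 1.23, adjusted p = 5.11e-06, exact binomial test). Kctd19/Lrrc36 had 2.31, 2.5, 3.23 and 3.08 and 0.65 (95% exact interval 0.14 to 1.18, adjusted p = 0.0447, exact binomial test).

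The largest relative decreases in that comparison were at Nsa2/Gfm2, genes of ribosome biogenesis and mitochondrial translation that start at the same base, with 9.02, 6.83, 3.01 and 5.45 and -0.90 (95% exact interval -1.31 to -0.50, adjusted p = 1.05e-04, exact binomial test). Glyr1/Ubn1, with a subunit of the HIRA histone chaperone, had 5.61, 4.52, 2.01 and 3.05 and -0.88 (95% exact interval -1.40 to -0.39, adjusted p = 0.00248, exact binomial test). Kdm4d/Cwc15, a histone H3 lysine 9 demethylase and a spliceosome component, had 14.1, 12, 5.57 and 6.53 and -0.82 (95% exact interval -1.13 to -0.53, adjusted p = 7.29e-07, exact binomial test). Nsa2/Gfm2 and Glyr1/Ubn1 had 5 and 6 MboI sites in the window, fewer than the median of 10.

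In miR-9-LOF over Control the 3 largest relative increases were again at low promoters, none above a level of 2.12 in any library. The largest, Gm20075/Gm17190, lay below the level of a mean stretch of the autosomes, 1.67, in all 4 libraries. Gm20075/Gm17190 had 0.238, 0.289, 0.52 and 0.609 and 1.62 (95% exact interval 0.36 to 3.18, adjusted p = 0.0188, exact binomial test), and Fam217a/4933417A18Rik had 0.919, 1.15, 1.56 and 1.83 and 1.31 (95% exact interval 0.63 to 2.04, adjusted p = 2.89e-04, exact binomial test). Dgcr2/Tssk2 was the third, at 1.14 (95% exact interval 0.49 to 1.83, adjusted p = 0.0011, exact binomial test). The 3 largest relative decreases included Srgap2/Fam72a, with a GTPase-activating protein, where the TSS lie at chr1:131527352-131527903. Its level was 34.4 in Control, 22.4 in TGFB1 alone, 12.2 in the TGFB1+miR-9-LOF library and 12.2 in miR-9-LOF alone, its relative ratio -1.17 (95% exact interval -1.35 to -1.0, adjusted p = 4.45e-41, exact binomial test), and its contacts were 106, 76.8, 58.1 and 52.1. Qrsl1/Rtn4ip1, both of mitochondrial proteins, had 9.49, 5.1, 3.75 and 3.32 and -1.18 (95% exact interval -1.54 to -0.85, adjusted p = 2.15e-12, exact binomial test), and Ankib1/Krit1, with a gene of cerebral cavernous malformation, had 10.6, 7.5, 3.53 and 3.83 and -1.14 (95% exact interval -1.47 to -0.83, adjusted p = 5.00e-13, exact binomial test). The windows of Qrsl1/Rtn4ip1 and Ankib1/Krit1 held 2 MboI sites each. In all 3 pairs both libraries with the miR-9 antagomiR lay below Control and below TGFB1. The pairs were picked for a low miR-9-LOF over Control ratio, which fixed that part of the order. Over all divergent promoters, Control was highest in 94.5% and TGFB1+miR-9-LOF lowest in 83.5%.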

How the data were processed

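The samples were 4 H3K4me3 HiChIP-seq libraries of MLg cells, 1 for each condition. The authors aligned reads to mm10 with HiC-Pro at default settings, assigned ends to MboI fragments and removed duplicates; its version is not given in the sources used here. The authors deposited the positions of both ends of each valid pair, which were counted here, and the mapping quality score of each end, used only as a filter. The deposited fragment numbers matched MboI sites located here in GRCm38 to within 1 fragment for 99.98% or more of the ends. No copy number correction was made.

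Promoters came from GENCODE M21, and counting used Python 3.11.15, numpy 2.4.6, pandas 2.3.3, scipy 1.17.1 and matplotlib 3.10.9. Levels used ends within 2 kb, contacts pairs of 20 kb to 2 Mb with an end within 10 kb. Promoters with at least 20 counts in both libraries together were compared with an exact binomial test, two-sided and conditional on their sum, with the median ratio of divergent and single promoters as null, adjusted by Benjamini-Hochberg over all of them. Log2 ratios used a pseudocount of 0.5. The end windows of 4 members and the contact windows of 20 overlap another member's. Intervals of medians are order-statistic intervals, and a conservative interval combines the bounds of both medians. The procedure was tested on simulated data. Among 14215 to 14450 promoters, 200 with more counts than the limit for a test were changed 2-fold. In level 137 to 147 of them were called, with 2 to 10 other calls, across the 3 comparisons. The simulated counts held counting error only, with no shift between libraries, classes or levels. Since the data hold such shifts, these numbers do not give the rate of false calls in the data.

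The members and lists were chosen with earlier results of these data known. Named are textbook pairs that meet the rule, the 5 highest and 3 lowest levels with at least 3 MboI sites, the 5 highest contacts, the 3 largest and smallest called ratios of level per comparison, and gene groups by symbol; the pairs joined by most contacts were added after their values were seen. Alternatives were other windows, filters, promoter classes and call rules. The authors' other data of this study were not used here.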

Additional observations from a re-analysis of the deposited data

How the results depend on the processing

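Of the 16 results recomputed under alternatives, the differences between the classes kept their sign. Among enriched promoters the differences in level change all came near 0. They were -0.0017 in TGFB1 over Control, -0.040 in TGFB1+miR-9-LOF over TGFB1 and -0.021 in miR-9-LOF over Control. The bins of mean level are not among these alternatives. For miR-9-LOF over Control, divergent promoters fell less than single ones in bins 3 and 4, and more in bins 1 and 2. The enriched share and the counts of calls have no sign. In all, 86 values stayed within the interval of the reported value or within 1.5 times a count. The 68 that did not are given here, and the cause of a shift was not tested except where the class compared was itself changed. There was 1 library per condition, so no replicate could be left out. The share of all promoters called was not counted under the alternatives, so the counts of divergent calls there have no background.

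With ends counted within 1 kb, the log2 ratio of levels was 2.32 in place of 1.75, 77.5% of divergent promoters were enriched on average in place of 64.2%, the differences in change were -0.19, -0.38 and -0.53 in place of -0.22, -0.43 and -0.60 (TGFB1 over Control, TGFB1+miR-9-LOF over TGFB1 and miR-9-LOF over Control, the order used throughout), and 61 and 209 promoters were called in place of 103 and 327 in the latter comparisons. Within 5 kb the ratio was 1.13, 34.1% were enriched, the change in TGFB1+miR-9-LOF over TGFB1 was -0.38 and 9 promoters were called in TGFB1 over Control in place of 15. With contacts counted within 5 kb, their log2 ratio was 1.01 in place of 0.71, the differences in the latter comparisons were -0.30 and -0.46 in place of -0.24 and -0.39, and 58 and 198 promoters were called in place of 22 and 113. Within 25 kb the ratio was 0.47, the differences were -0.15, -0.16 and -0.27 (-0.20 for the first within 10 kb), and 0, 4 and 30 promoters were called in place of 4, 22 and 113. Wider windows take in more sequence outside the promoter.

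With each fragment pair counted once, the differences in level in the latter comparisons were -0.39 and -0.55, 57 promoters were called in level in TGFB1+miR-9-LOF over TGFB1 and 2 in contacts in TGFB1 over Control. Against single promoters with a CpG ratio of at least 0.6, the log2 ratio was 0.67 in level and 0.31 in contacts, and the differences were -0.065, -0.15 and -0.12 in level and -0.10, -0.12 and -0.16 in contacts. With both classes at that ratio they were 0.76 and 0.33, with -0.075, -0.17 and -0.14 in level and -0.11, -0.14 and -0.18 in contacts. Against single promoters in dense neighbourhoods, the long-range share differed by -1.71 points and the level change in miR-9-LOF over Control was -0.65. Over local background the log2 ratio of levels was 1.45. Among enriched promoters, chosen on the level in the same libraries, it was 0.20 in level and 0.064 in contacts, the long-range share differed by -1.84, and the changes differed by -0.0017, -0.040 and -0.021 in level and -0.032, -0.053 and -0.040 in contacts.

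Relative to library totals, with the shift of all promoters left in, 113, 481 and 593 divergent promoters were called in level and 18, 84 and 310 in contacts. These counts include that common shift and cannot be read as particular to divergent promoters. At 2-fold 1, 1 and 18 were called in level and 0, 0 and 2 in contacts. With the pairs of overlapping starts added, 25 promoters were called in level in TGFB1 over Control. A mapping quality of at least 30, a limit of 300 bp between both TSS and the exclusion of promoters with a further coding TSS within 10 kb moved no value that far. The CpG limit in both classes, the enriched promoters of both classes and the overlapping starts were chosen after seeing the data. At this depth a promoter with fewer than 20 counts was not tested.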

Other observations

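The gene groups were also described by their change in level. In miR-9-LOF over Control the median log2 ratio relative to all promoters was -0.71 in the 18 pairs with a zinc finger gene, of which 12 were called in either direction. It was -0.61 in the 23 pairs of the respiratory chain group, of which 13 were called. It was -0.59 in the 15 pairs of the DNA repair and replication list and -0.57 in the 18 pairs with a mitochondrial ribosomal protein, with 8 called in each. The 11 chaperone pairs had -0.54 with 4 called, the 5 pairs with an aminoacyl-tRNA synthetase -0.54 with 1 called and the 8 pairs with a cytosolic ribosomal protein -0.51 with 2 called. Of all divergent promoters, 44.2% were called lower and 1.69% higher, and of all 14462 promoters tested 19.4% were called lower and 12.2% higher. The 14 histone pairs, whose levels were low, had 0.02 with 2 called.

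In TGFB1 over Control these medians lay between -0.26 and 0.04, leaving out the group of symbols starting with Col, which holds only 2 pairs, and 1 pair, of the zinc finger genes, was called. In TGFB1+miR-9-LOF over TGFB1 they lay between -0.51 for chaperones and -0.09 for histones, with 0 to 4 pairs called per group. Over all promoters 4.51% were called higher and 5.47% lower there, and over divergent promoters 0.562% and 13.9%. In TGFB1 over Control these shares were 2.66% and 0.834% over all and 0.422% and 1.69% over divergent promoters. No test of a group was made.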
